A study of Mus musculus with 9 samples.

Results

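The RNA levels of 9 complement genes were followed in mouse bone marrow-derived macrophages (BMDMs): the C1q chain genes C1qa, C1qb and C1qc, the central component C3, factor B (Cfb), properdin (Cfp), and the anaphylatoxin receptors C3ar1, C5ar1 and C5ar2. They were taken by symbol from the gene table, where each symbol had 1 row, and make up 9 of its 53465 genes. All 9 libraries came from BMDMs of male wild-type C57BL/6 mice grown with 50 ng/ml CSF1. Of these, 3 were left untreated (UNX), 3 received medium conditioned by pulmonary artery adventitial fibroblasts of control calves (CO-CM), and 3 received medium conditioned by such fibroblasts from calves with hypoxia-induced pulmonary hypertension (PH-CM). The length of treatment is 16 h by the growth protocol and 24 h by the treatment protocol, and the study's methods state a length between them, so the time is uncertain. The macrophages are murine and the fibroblasts bovine, each medium was pooled from several fibroblast populations, and untreated cells received no fibroblast medium, so that UNX is not a control for medium as such. The libraries are repeats of the culture experiment and not separate calves, so p-values measure the spread between these cultures.

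Complement is a cascade of plasma and locally made proteins that marks targets for uptake. In the classical pathway, C1q, assembled from A, B and C chains, binds antibody or altered surfaces and activates the proteases C1r and C1s, which then act on C4 and C2. In the alternative pathway, factor B joins C3b and is cut by factor D to form a convertase that properdin stabilises. Cleavage of C3 and C5 frees the anaphylatoxins C3a and C5a, which are sensed by the G protein-coupled receptors C3aR and C5aR1, while C5aR2 binds C5a without classical G protein coupling. Macrophages are a main source of C1q in tissues and carry these receptors.

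The C1q genes lie side by side on the reverse strand of chromosome 4 (GRCm38), in the order C1qb (136880129-136886187), C1qc (136889804-136893065) and C1qa (136895917-136898803), within 18675 bases and with no annotated gene between them. C5ar2 (chromosome 7, 16234585-16244154) and C5ar1 (16246743-16259540) are neighbours on the same strand, 2588 bases apart. C3ar1 lies on chromosome 6 (122847138-122856161), Cfb on chromosome 17 (34856374-34862518), C3 also on chromosome 17 (57203970-57228136) and Cfp on chromosome X (20925454-20931555). Cfb is a special case for counting, since 2246 of its 2825 exon bases (79.5%) also belong to the overlapping gene model Gm20547, and the study's methods name no option for reads that match more than 1 gene.

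The 250 bases before the RefSeq start are shown for 4 of the genes (GRCm38.p6, each on the reverse strand): C1qb, for the chain genes that moved together, C5ar1, which had the largest fold change of the 9 genes, Cfp, for which UNX lay between the media, and C3ar1, which ran the other way. Capitals mark TGCTGA, the recognition core of Maf, and GAGGAA, the core bound by PU.1, read on either strand. The windows are chr4:136886201-136886450, chr7:16259339-16259588, chrX:20931556-20931805 and chr6:122856158-122856407, in the order printed.
C1qb: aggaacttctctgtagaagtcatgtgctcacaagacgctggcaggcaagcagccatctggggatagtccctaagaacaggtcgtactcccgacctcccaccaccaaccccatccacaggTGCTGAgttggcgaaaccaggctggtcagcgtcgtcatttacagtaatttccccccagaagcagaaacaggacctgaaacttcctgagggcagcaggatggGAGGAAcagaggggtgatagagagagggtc
C5ar1: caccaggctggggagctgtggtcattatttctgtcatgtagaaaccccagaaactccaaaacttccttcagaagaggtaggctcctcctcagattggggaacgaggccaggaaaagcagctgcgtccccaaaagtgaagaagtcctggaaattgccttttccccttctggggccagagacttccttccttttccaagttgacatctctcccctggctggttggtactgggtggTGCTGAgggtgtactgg
Cfp: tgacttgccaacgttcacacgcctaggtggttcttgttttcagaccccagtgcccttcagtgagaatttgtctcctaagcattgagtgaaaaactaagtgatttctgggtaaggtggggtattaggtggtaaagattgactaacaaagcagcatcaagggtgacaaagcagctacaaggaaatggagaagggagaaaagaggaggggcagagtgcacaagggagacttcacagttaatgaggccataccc
C3ar1: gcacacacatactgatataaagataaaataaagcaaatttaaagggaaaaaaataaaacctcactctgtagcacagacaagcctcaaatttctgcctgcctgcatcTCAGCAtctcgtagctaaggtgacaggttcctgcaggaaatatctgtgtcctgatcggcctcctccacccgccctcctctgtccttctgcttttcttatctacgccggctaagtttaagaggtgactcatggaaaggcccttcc
TGCTGA was found in the windows of C1qb, C3, C3ar1 and C5ar1, which is 4 of the 7 genes with a window, beside 16.1% of all 32851 RefSeq windows of this length. GAGGAA was found for C1qb, C1qc and C5ar2, which is 3 of 7, beside 23.3% of all windows. C5ar2 has a pair of windows and matched in only 1. Of the window of C1qc, 151 bases lie in exons of the GENCODE model, and those of C5ar1 and C3ar1 hold 28 and 4 such bases. The hypoxia core ACGTG (16.6% of all windows) was in none of the 7. In the same scan, the NF-kB site was found for 6 of 7, beside 45.8% of all windows. The C/EBP site was found for 2 of 7 (9.6% of all windows) and the STAT site for 0 of 7 (7.0%). These are matches of letters alone, in windows of which some carry more than 1 motif, and no binding was measured.

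The libraries held 62017933 to 84314201 reads assigned to genes, with each mate of a pair apparently counted, since 81.4% to 83.8% of low counts were even. Levels are given as CPM (reads scaled to the library's total, with TMM factors) for comparing libraries and as RPKM, per length, for comparing genes. After the filter (CPM above 1 in at least 3 libraries) 11950 genes were tested in edgeR, and 8 of the 9 complement genes passed. A gene was called when its adjusted p was at most 0.05 and its fold change at least 1.2. Of 7 macrophage markers all passed, and their summed level was 11480 to 12330 CPM in UNX, 18840 to 19780 in CO-CM and 20730 to 22400 in PH-CM. Against UNX, 5 of the 7 were called higher in CO-CM (28.0% of all genes) and 6 in PH-CM (31.3%), with 0 lower. In CO-CM the 2 not called, Itgam and Fcgr1, had log2 changes of -0.22 and -0.15. Most of the sum was Lyz2, with a mean of 7251 CPM in UNX, 12814 in CO-CM and 15204 in PH-CM. Fibroblast markers summed to 196.7 to 248.5, 270.0 to 320.8 and 248.7 to 335.2 CPM in the same order, with 6 of 7 passing. Against UNX, 3 of these 6 were called higher in CO-CM (28.0% of all genes) and 4 in PH-CM (31.3%), with 0 lower. The 7 neutrophil markers summed to at most 3.70 CPM in any library with Ly6g at 0, those of dendritic cells (6) to at most 0.885, of lymphocytes (5) to at most 0.180 with Nkg7 at 0, and of mast cells and basophils (3) to at most 0.660 with Ms4a2 at 0. The part of these markers in the results below was not tested. In bulk RNA, fewer cells making a transcript and less RNA per cell cannot be told apart.

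Across the 8 genes, CO-CM and PH-CM gave different pictures. With CO-CM, 5 genes fell against UNX (C1qa, C1qb, C1qc, C5ar1 and Cfp) and 2 rose (C3 and C3ar1), so 7 of 8 were called, where 57.0% of all tested genes were (28.0% higher and 28.9% lower). With PH-CM, 4 rose (C3, C3ar1, C5ar2 and Cfp) and 1 fell (C5ar1), so 5 of 8 were called, beside 63.0% of all genes (31.3% higher and 31.7% lower). Between the media, 6 genes were higher in PH-CM (the 3 C1q genes, C5ar1, C5ar2 and Cfp), 1 was lower (C3ar1) and C3 was not called, so 7 of 8 were called, beside 27.1% of all genes. Of all genes, 12.2% were higher in PH-CM than in CO-CM and 15.0% lower. The median log2 fold change of the 8 genes was 0.48 between the media, beside -0.0064 over all genes, and it was 0.22 for PH-CM and -0.33 for CO-CM against UNX, beside 0.0072 and 0.00024. The same genes were the ones whose groups did not overlap: 5 of 8 for PH-CM against UNX (77.7% of all genes), 7 of 8 for CO-CM against UNX (72.0%) and 7 of 8 between the media (50.2%). The comparisons with UNX share its 3 libraries.

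**Figure D1:**
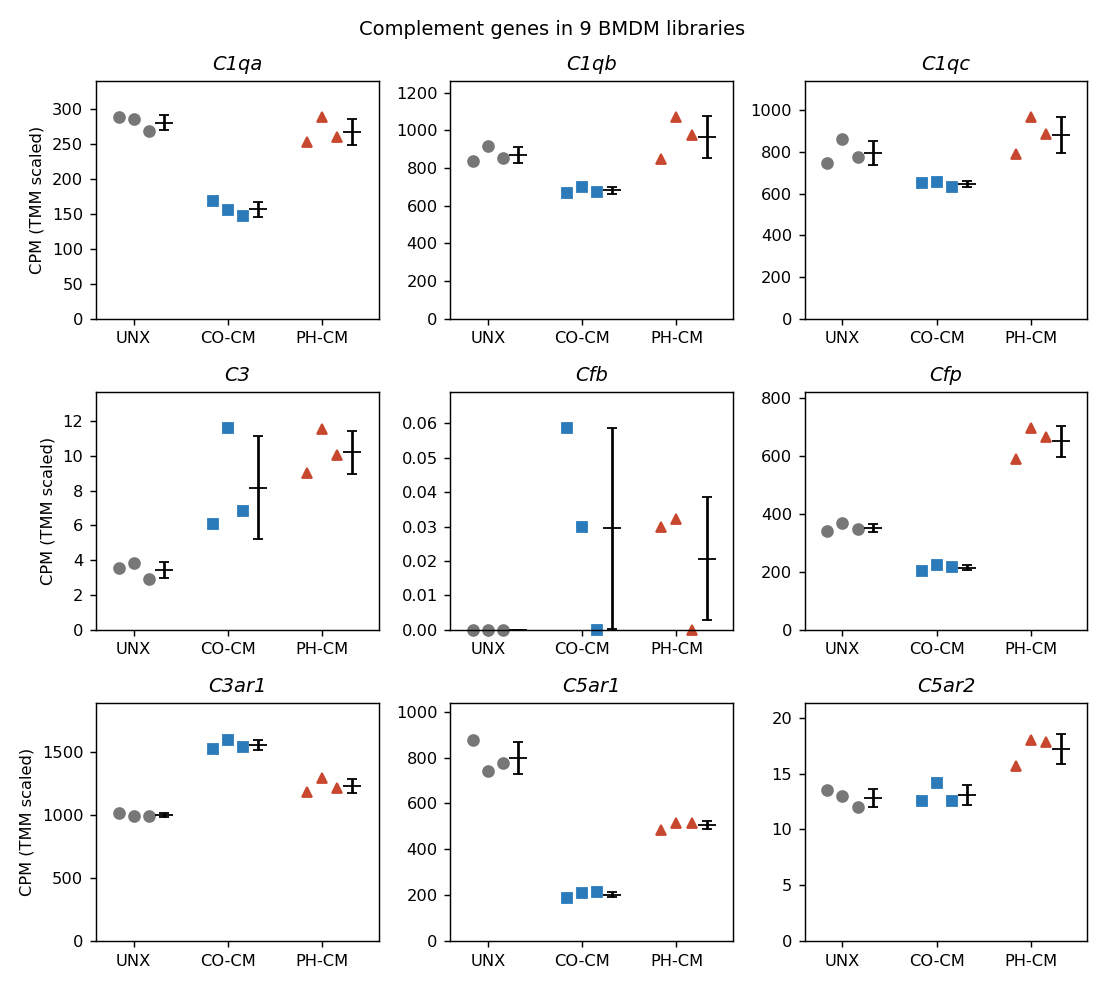
CPM (TMM scaled, linear axes from 0) of the 9 complement genes in each library of UNX (grey circles), CO-CM (blue squares) and PH-CM (red triangles), with the mean and SD (n = 3) in black. The CO-CM libraries lie lowest for the C1q genes, Cfp and C5ar1, and highest for C3ar1; Cfb had at most 4 reads in any library.

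**Figure D2:**
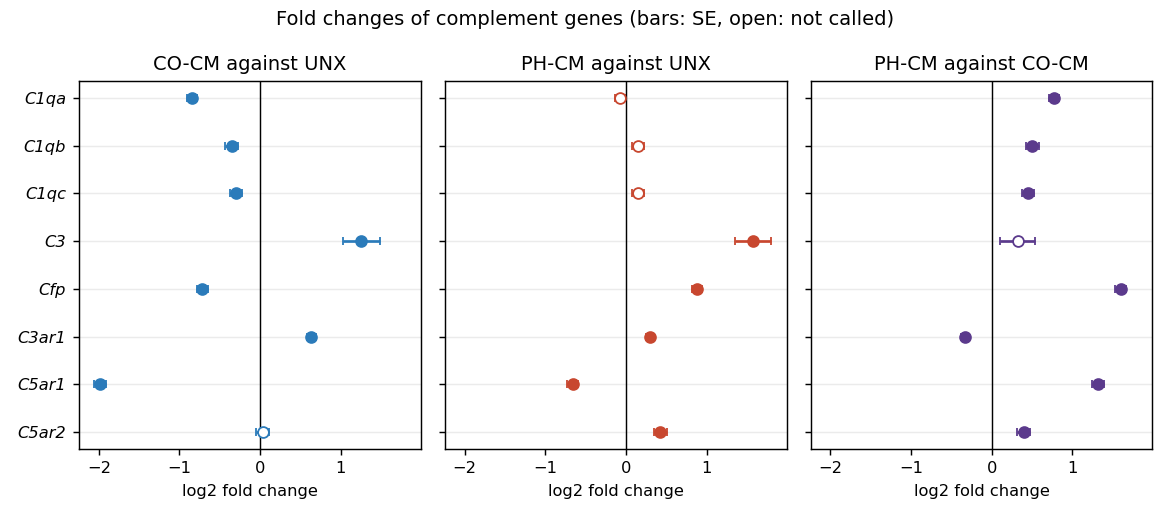
Log2 fold changes of the 8 tested complement genes in the 3 comparisons, with SE; filled points passed the call and open points did not. The largest is that of C5ar1 in CO-CM against UNX (-1.98), and Cfp lies on opposite sides of 0 in the comparisons with UNX.

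The C1q genes, which encode the recognition subunit of the classical pathway, were abundant in every group. Per length, C1qb stood highest in each library, with an RPKM of 797 to 862 in UNX, 603 to 621 in CO-CM and 781 to 962 in PH-CM, and was the 29th most abundant of the 11950 genes in UNX by group mean. C1qc came next (405 to 455, 318 to 336 and 412 to 489) and C1qa last (262 to 289, 137 to 161 and 243 to 271). Together the C1q genes took 0.193% to 0.211% of all reads in UNX, 0.141% to 0.149% in CO-CM and 0.190% to 0.227% in PH-CM.

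C1qa was at 288, 285 and 268 CPM in UNX, at 168, 155 and 146 in CO-CM and at 252, 288 and 260 in PH-CM. All CO-CM libraries lay below all others, while UNX and PH-CM overlapped. It fell in CO-CM by 0.84 on the log2 scale (SE 0.066, adjusted p = 1.41e-06) and was higher in PH-CM than in CO-CM by 0.77 (SE 0.066, adjusted p = 1.18e-05). Between PH-CM and UNX the difference was -0.07 (adjusted p = 0.329), with an interval of 2 SE from -0.20 to 0.06.

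C1qb was at 838, 919 and 851 CPM in UNX, 669, 701 and 674 in CO-CM, and 846, 1070 and 977 in PH-CM. C1qc was at 749, 860 and 775 CPM in UNX, 649, 656 and 631 in CO-CM, and 792, 966 and 885 in PH-CM. For both genes the CO-CM libraries again lay below every other library, and replicate 2 was the highest in each of the groups. C1qb fell in CO-CM by 0.35 (SE 0.079, adjusted p = 0.00234) and C1qc by 0.30 (SE 0.076, adjusted p = 0.00489). For C1qc this call was close to the threshold of 1.2-fold: without UNX replicate 2 the value was -0.26 (adjusted p = 0.0158) and was no longer called. In PH-CM against CO-CM, C1qb was higher by 0.50 (adjusted p = 0.000679) and C1qc by 0.45 (adjusted p = 0.00108). PH-CM against UNX gave 0.15 for each (adjusted p = 0.108 and 0.100), with intervals of 2 SE from -0.01 to 0.31 and from -0.0038 to 0.30.

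The chain genes did not fall to the same degree. The log2 ratio of C1qa to C1qb reads within a library was -1.63 ± 0.079 in UNX, -2.13 ± 0.11 in CO-CM and -1.85 ± 0.091 in PH-CM (SD, n = 3). An exact permutation test that reassigned all 9 libraries freely gave p = 0.00357, the smallest it can give (adjusted p = 0.00595 over 5 ratios). Over the alternative settings, which included permutation within replicate number, the exact permutation p was at most 0.0278. Per length, C1qa RNA was 0.325 to 0.359 of C1qb in UNX, 0.227 to 0.262 in CO-CM and 0.278 to 0.312 in PH-CM, so the groups did not overlap. The ratio of C1qc to C1qb stayed within 0.503 to 0.546 per length in all 9 libraries (exact permutation p = 0.218, adjusted p = 0.272). Over the 9 libraries, C1qc was the gene whose centred log2 levels differed least from those of C1qb among all 11950 genes (root mean square difference 0.035), and C1qb the nearest of C1qc. The nearest genes of C1qa were instead Vav3 (0.059), Maf (0.063) and Pxk (0.081), while C1qb was at 0.216 from it.

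**Figure D3:**
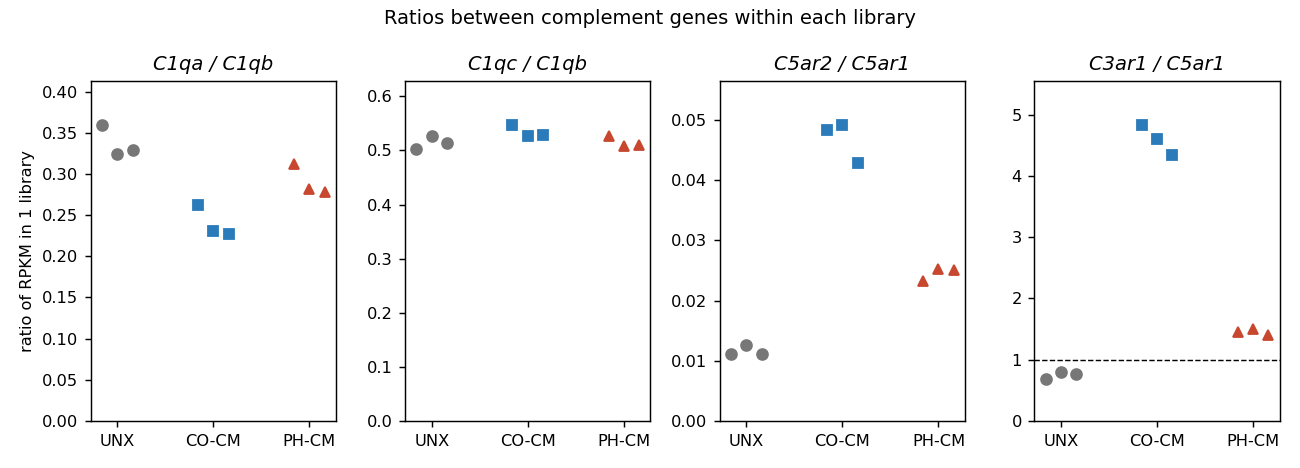
Ratios of RPKM between pairs of complement genes within each library (linear axes from 0), for UNX (grey circles), CO-CM (blue squares) and PH-CM (red triangles). C1qc / C1qb is nearly level, C1qa / C1qb is lowest in CO-CM, and C3ar1 / C5ar1 lies below 1 (dashed line) only in UNX.

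Among components of the alternative pathway, Cfb could not be ranked, given its shared exon bases, and Cfp was abundant. Properdin, its product, is the positive regulator that stabilises the convertase. Cfp was at 341, 367 and 348 CPM in UNX, 203, 223 and 216 in CO-CM, and 589, 694 and 664 in PH-CM, so that no groups overlapped and UNX lay in the middle. It fell in CO-CM by 0.72 (SE 0.066, adjusted p = 4.78e-06) and rose in PH-CM by 0.88 (SE 0.066, adjusted p = 7.18e-07). PH-CM exceeded CO-CM 3.03-fold (SE 0.067 on the log2 scale, adjusted p = 1.09e-07), the largest difference between the media among the 8 genes. By RPKM, Cfp ranked 190th of 11950 genes in UNX, 329th in CO-CM and 87th in PH-CM. The genes with the most similar levels over the 9 libraries were Cd300ld (root mean square difference 0.105), Man1a (0.112) and Stk17b (0.118).

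C3, the component on which all activation routes converge, was scarce by comparison. Its RPKM was 0.577 to 0.763 in UNX, 1.19 to 2.17 in CO-CM and 1.76 to 2.19 in PH-CM, with 230 to 774 reads in a library. In CPM, C3 was at 3.55, 3.84 and 2.91 in UNX, 6.11, 11.6 and 6.83 in CO-CM, and 9.01, 11.5 and 10.1 in PH-CM. Every treated library lay above every untreated one. C3 rose by 1.57 in PH-CM (SE 0.23, 2.98-fold, adjusted p = 9.71e-05) and by 1.25 in CO-CM (SE 0.23, 2.38-fold, adjusted p = 0.000587). The media overlapped. In CPM, CO-CM replicate 2 lay just above every PH-CM library, while by RPKM PH-CM replicate 2 was the higher (2.19 against 2.17). The difference between the media of 0.32 (SE 0.22, adjusted p = 0.274) had an interval of 2 SE from -0.11 to 0.75. This call depended on the fit: with replicate number blocked the difference was 0.35 with adjusted p = 0.0452, and without CO-CM replicate 2 it was 0.66 with adjusted p = 0.00829, both past the threshold.

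Cfb, the gene for the protease subunit of the alternative convertase, had 0 reads in all UNX libraries, 4, 2 and 0 in CO-CM and 2, 2 and 0 in PH-CM. It did not pass the filter and no fold is given; fitted without the filter it was not called, with adjusted p from 0.191 to 0.951. The overlapping model Gm20547 was listed at 0 reads in all libraries, and whether reads matching both models were dropped was not tested, so these counts say little about Cfb RNA. The read ratio of Cfb to C3, the last of the 5 ratios tested, rested on the prior count added to 0 and gave an exact permutation p = 0.386 (adjusted p = 0.386).

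The anaphylatoxin receptors each followed a different course. C3ar1, the receptor of C3a, was at 1015, 991 and 987 CPM in UNX, 1519, 1596 and 1537 in CO-CM, and 1182, 1294 and 1210 in PH-CM. No groups overlapped, and CO-CM was the highest. C3ar1 rose by 0.64 in CO-CM (SE 0.051, 1.55-fold, adjusted p = 1.79e-06) and by 0.30 in PH-CM (SE 0.051, 1.23-fold, adjusted p = 0.000323), and was lower in PH-CM than in CO-CM by 0.34 (adjusted p = 0.000542). The rise in PH-CM lay just past the fold threshold, and with library size alone as scaling it was 0.24 and not called. The 3 genes with the most similar levels over the 9 libraries were Irf8 (0.046), Acads (0.051) and Adam17 (0.053).

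C5ar1, the main receptor of C5a, changed most. It was at 879, 742 and 775 CPM in UNX, 188, 207 and 212 in CO-CM, and 485, 517 and 514 in PH-CM. The groups were well apart, with UNX highest and CO-CM lowest. C5ar1 fell in CO-CM by 1.98 (SE 0.073, adjusted p = 1.02e-08), which left UNX 3.95-fold higher, and fell in PH-CM by 0.66 (SE 0.071, 1.58-fold, adjusted p = 1.07e-05). PH-CM exceeded CO-CM by 1.32 (SE 0.072, 2.50-fold, adjusted p = 6.14e-07). Phlda1 was nearest to it over the 9 libraries (0.138), followed by Donson (0.188) and Nlrp3 (0.190), which encodes an inflammasome sensor.

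C5ar2, the neighbour of C5ar1 and the second receptor of C5a, was far less abundant, with an RPKM of 3.42 to 3.96 in UNX, 3.43 to 3.82 in CO-CM and 4.42 to 4.96 in PH-CM. Its CPM was 13.5, 13.0 and 12.0 in UNX, 12.6, 14.1 and 12.6 in CO-CM, and 15.7, 18.0 and 17.9 in PH-CM. All PH-CM libraries lay above the others, while UNX and CO-CM overlapped. C5ar2 rose in PH-CM by 0.43 against UNX (SE 0.081, adjusted p = 0.000745) and by 0.39 against CO-CM (SE 0.082, adjusted p = 0.00348). Between CO-CM and UNX the difference was 0.03 (adjusted p = 0.753), with an interval of 2 SE from -0.13 to 0.20, and its sign changed with the scaling.

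The balance of the receptors differed between the groups. Per length, C3ar1 RNA was 0.690 to 0.797 of C5ar1 RNA in UNX, 4.33 to 4.82 times as high in CO-CM and 1.41 to 1.49 times as high in PH-CM, so the order of the receptors in UNX was reversed in both media. The log2 read ratio of C3ar1 to C5ar1 was 0.33 ± 0.11 in UNX, 2.94 ± 0.077 in CO-CM and 1.28 ± 0.045 in PH-CM (SD, n = 3; exact permutation p = 0.00357, adjusted p = 0.00595). C5ar1 RNA was 79.2 to 90.3 times as high per length as C5ar2 RNA in UNX, 20.4 to 23.4 times in CO-CM and 39.7 to 42.9 times in PH-CM, with the same exact permutation p = 0.00357 for the read ratio.

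For most of the rest of the cascade few or no reads were counted in these cells. Of 51 other complement genes 15 passed the filter, and 13 had no read in any library. These 13 included Cfd (factor D), Cfi (factor I), Hc (component C5), C6, C7, C8a, C8b, Mbl1, Mbl2 and Vtn. With 0 reads, up to 3 read pairs per library are allowed for by counting error. C2 (162 reads over all libraries), C4b (169) and C1s1 (39) were counted at trace levels. Of the exon bases of C2 46.9%, and of those of C1s1 18.4%, are shared with other gene models. How reads matching more than 1 gene or place were handled was not tested, so low counts need not mean low RNA. The protease gene C1ra passed, at 0.691 to 1.11 RPKM by group mean, and was lower in PH-CM than in CO-CM by 0.70 (adjusted p = 0.00942).

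**Figure D4:**
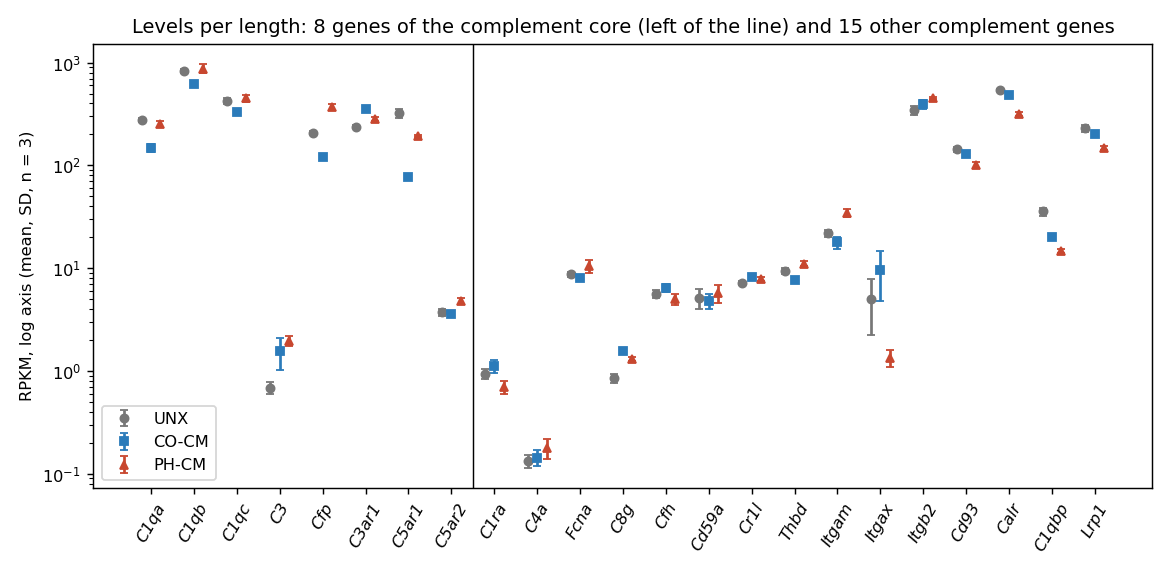
Group mean RPKM with SD (n = 3, log axis) of the 8 tested complement genes, left of the line, and of the 15 other complement genes that passed the filter, right of it. The C1q genes, Cfp, C3ar1 and C5ar1 lie far above C3, and among the others Calr, Itgb2, Lrp1 and Cd93 are the most abundant.

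Of the 15 that passed, 10 were called in PH-CM against UNX (5 higher and 5 lower), beside 63.0% of all genes. In CO-CM against UNX 3 were called (2 higher and 1 lower), beside 57.0%, and between the media 10 (3 higher in PH-CM and 7 lower), beside 27.1%. The median log2 fold changes were 0.18, -0.03 and -0.28. With the replicate block 5 were called in CO-CM against UNX. Of the 9 receptors and C1q binding proteins 7 passed. In PH-CM against UNX these 7 were called, 2 higher and 5 lower (63.0% of all genes called). In CO-CM against UNX 1 was higher and 1 lower (57.0%), and between the media 1 was higher in PH-CM and 5 lower (27.1%).

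C1qbp, which encodes a mitochondrial protein that can bind C1q heads, fell from 102, 88.5 and 104 CPM in UNX to 57.5, 54.6 and 60.7 in CO-CM and to 43.2, 40.4 and 42.7 in PH-CM, with no overlap. The log2 changes against UNX were -0.76 (adjusted p = 3.06e-06) and -1.22 (adjusted p = 7.63e-08). Itgax and Itgam encode the alpha chains of complement receptors that bind cleaved C3, and Itgb2 their shared beta chain. Itgax was at 8.52, 33.5 and 29.1 CPM in UNX, 19.2, 63.8 and 59.4 in CO-CM, and 5.13, 6.78 and 7.65 in PH-CM. Replicate 1 was lowest in each group, and PH-CM lay below every other library. Itgax fell in PH-CM by 1.87 against UNX (SE 0.53, adjusted p = 0.00828) and fell by 2.87 against CO-CM (SE 0.54, adjusted p = 0.00200).

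Itgam moved the other way, at 97.5, 116 and 106 CPM in UNX, 75.7, 100 and 99.5 in CO-CM and 157, 189 and 181 in PH-CM, and rose by 0.72 in PH-CM against UNX (adjusted p = 0.000159). Of its exon bases 68.7% are shared with the gene model Gm49368, which held 22 reads in all libraries. Calr, Cd93 and Lrp1, whose products have each been described as binding C1q or acting with it in uptake, fell in PH-CM against UNX by 0.72, 0.44 and 0.58.

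**Figure D5:**
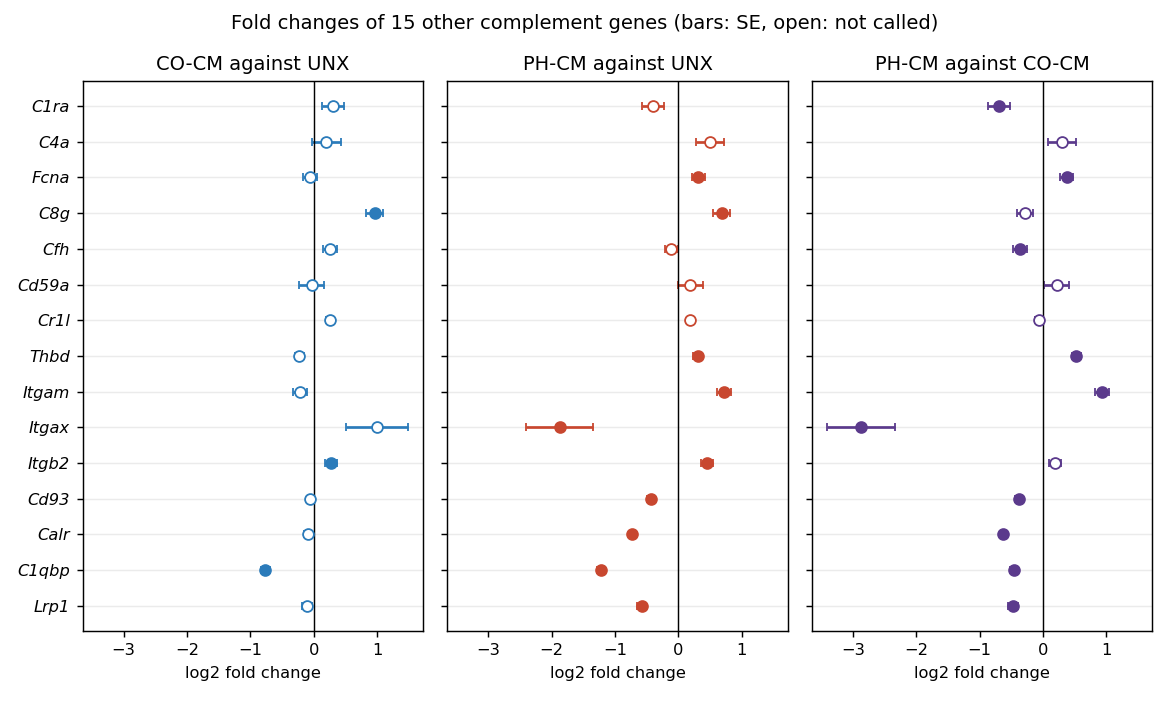
Log2 fold changes, with SE, of the 15 other complement genes that passed the filter, in the 3 comparisons; filled points passed the call. In PH-CM against UNX, Itgam, Itgb2, C8g, Thbd and Fcna are to the right and Itgax, C1qbp, Calr, Lrp1 and Cd93 to the left, and Itgax has the widest error.

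Other chemoattractant receptors were examined beside the anaphylatoxin receptors. Of 5 genes 4 passed the filter. Fpr1 and Fpr2, receptors of formyl peptides, passed only through PH-CM, at 2.03 to 2.38 and 0.997 to 1.09 CPM, against 0.023 to 0.154 and 0.080 to 0.123 in UNX, so they could pass only by being high there and are not counted as called. The filter used CPM by library total alone. Cmklr1, the receptor of chemerin, was at 1.51, 3.07 and 2.24 CPM in UNX, 3.80, 5.09 and 4.32 in CO-CM and 14.2, 18.0 and 17.5 in PH-CM. It rose by 2.86 in PH-CM against UNX (adjusted p = 7.33e-07). Ptafr, the receptor of platelet-activating factor, rose by 0.89 in PH-CM and by 0.90 in CO-CM.

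Of 7 genes that couple or desensitise these receptors, 2 rose and 2 fell in PH-CM (63.0% of all genes called), and 1 rose and 3 fell in CO-CM (57.0%). Pik3cg, the G protein-activated PI3 kinase, fell by 0.85 in PH-CM and by 0.87 in CO-CM, and Arrb2, a beta-arrestin, was higher in PH-CM than in CO-CM by 0.69 (adjusted p = 1.13e-05).

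Some transcription factors known to act on complement promoters are given for their own levels. Maf, among the nearest genes of C1qa, was at 703, 806 and 698 CPM in UNX, 463, 437 and 389 in CO-CM and 696, 787 and 689 in PH-CM, and fell in CO-CM by 0.78 (adjusted p = 1.47e-05). Irf8, the nearest gene of C3ar1, was at 139, 139 and 132 CPM in UNX, 215, 238 and 218 in CO-CM and 167, 178 and 176 in PH-CM. Both were picked for their likeness to these genes over the same 9 libraries, so their order of groups is no separate observation. Cebpb rose by 1.87 in PH-CM against UNX (adjusted p = 1.42e-07).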

How the data were processed

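RNA-seq was analysed from 9 BMDM libraries in 3 groups of 3. After quality control (FastQC, AfterQC) the authors mapped reads to GRCm38 with STAR, counted exon reads per gene with featureCounts 1.6.2 on an Ensembl annotation, and deposited raw counts. The deposited RPKM values are scaled by library total and exon length. Both tables were used as deposited, the RPKM only for levels per length.

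Counts were fitted in edgeR 4.0.16 (R 4.3.3) by the quasi-likelihood test over all 9 libraries, with TMM scaling and a filter of CPM above 1 in at least 3 libraries, and p-values were adjusted by Benjamini-Hochberg over the 11950 genes tested. The study's methods use edgeR's exact test, which was run as an alternative, as were DESeq2 1.42.0, other scalings, filters, thresholds and fits without each library. Ratios within a library (log2, prior count 2) were compared by an exact permutation test of the sum of squares between the 3 groups. That test has no direction and singles out no pair of groups. Same-numbered libraries deviated together (correlations of 0.276 to 0.484 over genes), so a fit blocked on replicate number was also run. In simulated counts, 191 to 194 of 200 changed genes were recovered, with 13 to 18 false calls. Far fewer genes were changed there than were called in the data. The libraries were also drawn without the shared deviation of same-numbered ones, so these figures need not carry over. Recovery close to the threshold of 1.2-fold was not tested separately. Named were the 9 genes, others of the lists called at 2-fold or more with values for those that bear on them, and the 3 genes of smallest root mean square difference. The genes and lists were chosen with earlier results of these data known. Coordinates are from GENCODE M21 and promoter windows from RefSeq, where C1qa and Cfb had none. Part of the list of transcription factors is not reported here.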

Additional observations from a re-analysis of the deposited data

How the results depend on the processing

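Over the 21 alternative fits of each fold change of the 8 genes, 478 values kept direction and call, 19 lost the call, 2 gained it and 5 changed sign. The sign changes were all of C5ar2 in CO-CM against UNX, which was not called in any fit: -0.040 with library size alone, -0.0090 without a filter, -0.0017 with filterByExpr, and -0.034 to 0.061 when a library was left out. With a 2-fold threshold 1 of the 8 genes was called in PH-CM against UNX, 2 in CO-CM against UNX and 2 between the media, and of the other complement genes 2, 0 and 1; this threshold accounts for 14 of the 19 lost calls. The others were C3ar1 in PH-CM against UNX (0.24 to 0.26 with library size alone, without a filter and with filterByExpr) and C1qc in CO-CM against UNX (-0.24 with upper-quartile factors, -0.26 without UNX replicate 2). The other complement genes called in CO-CM against UNX numbered 3, and 5 with upper-quartile factors, without a filter or without a fold threshold, and 2 to 6 when a library was left out (5 without UNX replicate 2, 6 without CO-CM replicate 1). The cause was not tested. With the replicate block, C3 between the media was called (0.35) and 5 other complement genes were called in CO-CM against UNX; the block changed no other call of the 8 genes. Ratios kept their direction and side of the threshold, C1qa to C1qb between the media ranging from 0.22 to 0.34. The settings for ratios included permutation within replicate number. Over them the exact permutation p reached 0.0278 for C1qa to C1qb, C3ar1 to C5ar1 and C5ar2 to C5ar1. Cfb was too low for the filter.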
